A study of Danio rerio with 9 samples.

Results

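Purkinje cells are the GABA-releasing output neurons of the cerebellar cortex, and their axons end in the cerebellum and adjoining hindbrain nuclei. They are known for large, fast calcium signals, which calcium-binding proteins such as parvalbumin take up. In zebrafish, aldolase C (the zebrin II antigen), parvalbumin 7 and the carbonic anhydrase relative ca8 are used to mark them.

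Expression of 5 genes of this kind was followed over 9 arrays of neurons sorted from adult zebrafish brain. The members were every probe set that the platform annotation assigns to aldoca, ca8, pvalb7, pvalb6 or pcp4l1. This gave 6 of the 15502 probe sets tested, 2 for ca8 and 1 for each other gene, and all 6 carry a single gene symbol. The genes were chosen by measured values of these same arrays, namely large differences of the regenerated arrays from both other groups and a high value in 1 unlesioned array. Those values, and any count of members past a threshold in those comparisons, are therefore a description and not a test.

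Regenerated neurons (3 arrays) came from fish with a complete spinal cord transection at vertebra 8. Fluororuby, a red retrograde tracer, was given at the transection, and Fluoroemerald, a green one, was injected 4 mm further down after 3 weeks to mark neurons whose axons had regrown that far. Nonregenerated neurons (3 arrays) came from fish treated in the same way and are labelled as not having regrown an axon. The sort gates, and whether both groups came from the same fish, are not given in the sources used here. Unlesioned neurons (3 arrays) came from fish without a transection that received Fluororuby at the same vertebra. All cells were sorted 1 week after the last tracer, so the time since the first tracer differs between lesioned and unlesioned groups. The labels call the samples biological replicates, and the number of fish in each was not stated in the sources used here. The labels name the cells cerebrospinal neurons of the brain. They do not mention the cerebellum.

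The arrays of the regenerated group also differed from the rest in the reading of negative controls and in the spread over all probe sets. The median of 22 negative control probe sets was 0.27 ± 0.22 in regenerated, -0.06 ± 0.09 in nonregenerated and -0.04 ± 0.11 in unlesioned arrays (log2, mean ± SD, n = 3 each). The SD over all probe sets ran from 0.594 to 0.650 in regenerated, 0.394 to 0.427 in nonregenerated and 0.349 to 0.430 in unlesioned arrays. That SD takes in differences between the groups as well as technical spread, and these cannot be told apart here. Member differences of the regenerated group are given below also with the negative control median as a covariate. The 3' minus 5' reading of GAPDH, a measure of RNA quality, was 0.60 in unlesioned array 2 and from -0.36 to 0.21 in the other arrays. That of actin, read on a skeletal muscle form, was 0.00 in unlesioned array 2 and -0.77 in regenerated array 1. It was 0.57 in regenerated array 3 and from -0.08 to 0.19 in the rest. Control probe sets are centred on their own medians too, so both readings only compare arrays. The bearing of these readings on the members was not tested.

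Each value is on the log2 scale and relative to the probe set's own median over the 9 arrays, which is 0. Values therefore compare arrays within a probe set. They give no absolute level, and levels of different genes cannot be set against each other.

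**Figure D1:**
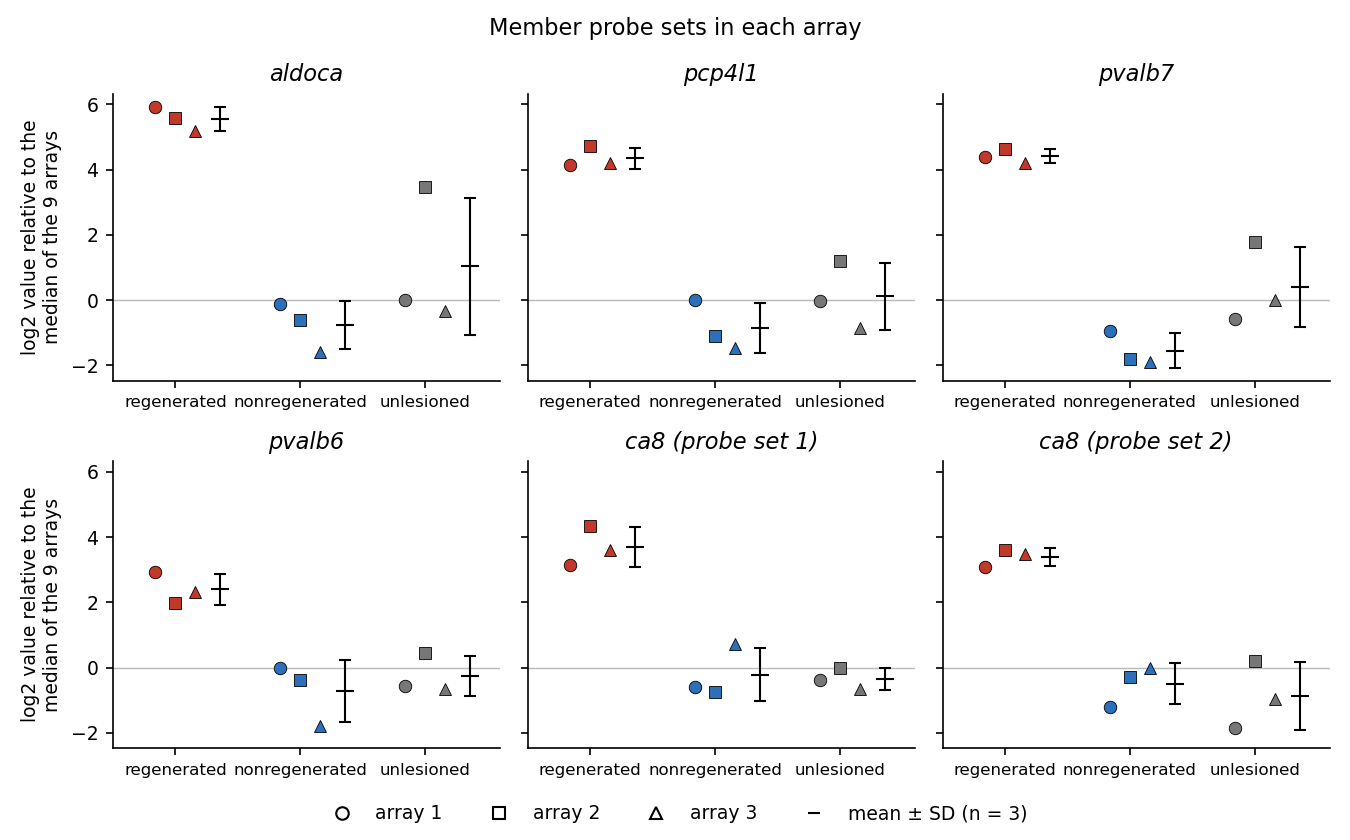
Log2 value of each member probe set (panels; ca8 has 2 panels, probe set 1 and probe set 2) in each array, by group on the horizontal axis, with points for arrays 1 to 3 and the mean ± SD beside them. All regenerated points lie above all others, and unlesioned array 2 is the highest unlesioned point in all 6 panels, at 3.46 for aldoca.

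The gene aldoca encodes aldolase C, a brain form of the glycolytic enzyme that splits fructose 1,6-bisphosphate. Its probe set read 5.93, 5.58 and 5.19 in the regenerated arrays 1 to 3. It read -0.12, -0.60 and -1.58 in the nonregenerated arrays and 0.00, 3.46 and -0.33 in the unlesioned arrays. The regenerated arrays did not overlap with either group, whereas unlesioned array 2 stood between the regenerated arrays and the other unlesioned arrays.

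The gene pcp4l1 encodes a small protein related to Purkinje cell protein 4, which binds calmodulin. Its probe set read 4.13, 4.72 and 4.21 in regenerated arrays, against 0.00, -1.10 and -1.46 in nonregenerated and -0.02, 1.21 and -0.85 in unlesioned arrays. The regenerated arrays were again clear of the rest, and unlesioned array 2 was the highest of the remaining 6.

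The parvalbumins are EF-hand proteins that buffer calcium in fast neurons and in muscle. The probe set of pvalb7 read 4.39, 4.64 and 4.2 in regenerated arrays, against -0.94, -1.79 and -1.90 in nonregenerated and -0.57, 1.78 and 0.00 in unlesioned arrays. The probe set of pvalb6 read 2.92, 1.99 and 2.31 in regenerated arrays, against 0.00, -0.37 and -1.80 in nonregenerated and -0.56, 0.46 and -0.67 in unlesioned arrays. For pvalb7 the 3 groups were separate from each other in every array. For pvalb6 the nonregenerated and unlesioned arrays overlapped.

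The gene ca8 encodes a carbonic anhydrase relative that lacks enzyme activity in mammals and binds the inositol trisphosphate receptor of the calcium store there. Its probe set 1 read 3.14, 4.34 and 3.61 in regenerated arrays, against -0.60, -0.76 and 0.73 in nonregenerated and -0.38, 0.00 and -0.65 in unlesioned arrays. Its probe set 2 read 3.10, 3.62 and 3.49 in regenerated arrays, against -1.21, -0.29 and 0.00 in nonregenerated and -1.86, 0.20 and -0.97 in unlesioned arrays. Both placed every regenerated array above every other array. In both, nonregenerated array 3 was the highest of its group, while in aldoca, pcp4l1, pvalb7 and pvalb6 it was the lowest.

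Against nonregenerated neurons, all 5 genes were higher in regenerated neurons. The fitted difference was 6.33 ± 0.87 for aldoca, 5.96 ± 0.54 for pvalb7, 5.21 ± 0.53 for pcp4l1 and 3.13 ± 0.49 for pvalb6 (log2, ± SE of the limma model, n = 3 arrays a group). The 2 probe sets of ca8 differed by 3.91 ± 0.43 (probe set 1) and 3.90 ± 0.49 (probe set 2). These are 80.5-fold for aldoca, 62.0-fold for pvalb7, 36.9-fold for pcp4l1, 8.75-fold for pvalb6, and 15.0-fold and 14.9-fold for ca8. Among all 15502 probe sets the difference of aldoca ranked 1, pvalb7 ranked 2 and pcp4l1 ranked 4, with ca8 at ranks 11 and 12 and pvalb6 at rank 24. Less RNA per cell and fewer cells of a type cannot be told apart in pooled sorted neurons.

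All 6 member probe sets were past the threshold for a call (limma, Benjamini-Hochberg adjusted p under 0.05 over all probe sets), beside 1.05% of all probe sets, and in all 6 every regenerated array lay above every nonregenerated array, beside 12.5% of all probe sets. Since these differences chose the genes, nothing is read from the counts. With the negative control median as a covariate the difference was 6.62 for aldoca, 6.61 for pvalb7, 5.78 for pcp4l1, 2.99 for pvalb6, and 4.36 and 4.22 for ca8 probe sets 1 and 2. With it, aldoca, pvalb6 and ca8 probe set 2 were no longer past the threshold, and the same 3 were not past it after a further quantile normalization. Over all alternatives the fold ran from 30.4 to 101 for aldoca, 31.6 to 97.8 for pvalb7, 15.7 to 54.8 for pcp4l1 and 6.03 to 11.2 for pvalb6. For ca8 it ran from 7.36 to 20.8 in probe set 1 and 8.43 to 18.7 in probe set 2.

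Against unlesioned neurons, all 5 genes were also higher in regenerated neurons, with the same regenerated arrays entering both comparisons. The difference was 4.52 ± 0.87 for aldoca (23.0-fold), 4.24 ± 0.53 for pcp4l1 (18.9-fold), 4.01 ± 0.54 for pvalb7 (16.1-fold) and 2.66 ± 0.49 for pvalb6 (6.34-fold). For ca8 it was 4.04 ± 0.43 (probe set 1, 16.5-fold) and 4.27 ± 0.49 (probe set 2, 19.3-fold). All 6 probe sets were past the same threshold, beside 0.871% of all probe sets, and none overlapped between the groups, where every regenerated array lay above every unlesioned array in 10.5% of all probe sets.

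These values chose the genes as well, and the counts are again a description. With the covariate the difference was 4.79 for aldoca, 4.78 for pcp4l1, 4.63 for pvalb7, 2.53 for pvalb6, and 4.47 and 4.58 for ca8 probe sets 1 and 2. After quantile normalization it was 2.90 for aldoca (7.46-fold), 3.04 for pcp4l1 (8.24-fold), 2.45 for pvalb7 (5.48-fold) and 2.19 for pvalb6 (4.55-fold). For ca8 it was then 3.11 (8.63-fold) and 3.55 (11.7-fold), and every member stayed above 0. The number past the threshold was 4 with the covariate and 2 after quantile normalization. It was 3 without unlesioned array 3, 4 without unlesioned array 1 or any 1 of the regenerated arrays, 5 without any 1 of the nonregenerated arrays and 6 without unlesioned array 2. The probe set of aldoca was among those no longer past it in each of these fits except that without unlesioned array 2. With only the 6 arrays compared aldoca was lost as well, and with array weights aldoca and pvalb6 were. The call of aldoca was lost in 12 of 18 alternatives.

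**Figure D2:**
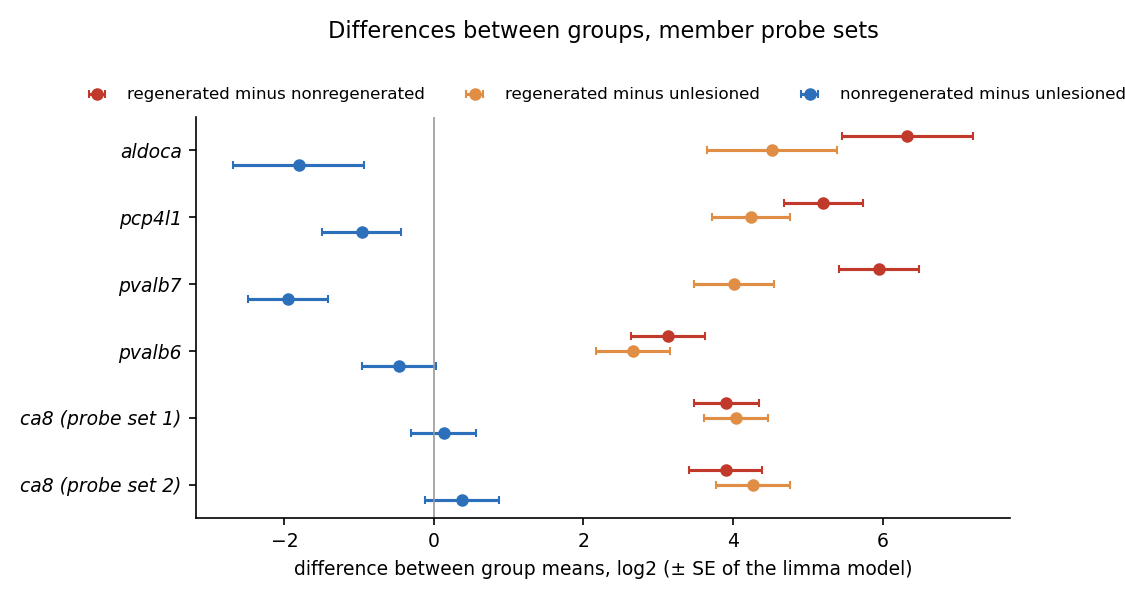
Fitted log2 difference between group means (horizontal axis, with its SE) for each member probe set, for regenerated minus nonregenerated, regenerated minus unlesioned and nonregenerated minus unlesioned. Both differences of the regenerated group lie between 2.66 and 6.33, and nonregenerated minus unlesioned is largest in size for pvalb7 at -1.95.

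Nonregenerated and unlesioned neurons were compared in the same model. This comparison was not the one that chose the genes, but it shares its arrays with those that did, and the high value of unlesioned array 2, which was part of the choice, enters its unlesioned mean. The difference was -1.95 ± 0.54 for pvalb7 and -1.81 ± 0.87 for aldoca. It was -0.97 ± 0.53 for pcp4l1 and -0.47 ± 0.49 for pvalb6, and for ca8 it was 0.13 ± 0.43 (probe set 1) and 0.37 ± 0.49 (probe set 2). No member was called by limma, with adjusted p = 0.763 for pvalb7 and 0.999 for the others. Of all probe sets 0% were called. Of the 15502, 790 had an unadjusted limma p under 0.05, about as many as that threshold passes where nothing differs. The unadjusted limma p of pvalb7, 0.00525, is 1 of these, and nothing is read from it. All nonregenerated arrays lay below all unlesioned arrays for pvalb7 alone among the 6 member probe sets, beside 5.9% of all probe sets. Without unlesioned array 2 the difference was -1.26 for pvalb7, -0.60 for aldoca, -0.42 for pcp4l1 and -0.11 for pvalb6, and it was 0.30 and 0.91 for ca8 probe sets 1 and 2. Without nonregenerated array 3 that of pvalb6 was 0.07.

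Unlesioned array 2 held the highest unlesioned value of all 6 member probe sets. It exceeded the mean of the other unlesioned arrays by 3.62 for aldoca, the largest such excess among the 15502 probe sets. The excess was 2.06 for pvalb7 (rank 10), 1.64 for pcp4l1 (rank 31), 1.62 for ca8 by probe set 2 (rank 36), 1.08 for pvalb6 (rank 251) and 0.52 for ca8 by probe set 1 (rank 1626). In 5 of the 6 probe sets it was over 1 above both other unlesioned arrays, as were 141 of all probe sets, or 0.910%. For unlesioned arrays 1 and 3 such probe sets numbered 206 and 112, none of them a member. Since the high value of unlesioned array 2 was part of the choice of genes, these ranks and counts are a description. Nothing is read from them. The lowest regenerated array was above unlesioned array 2 in every case, by 1.73 for aldoca, 1.52 for pvalb6 and 2.42 to 3.14 for the others.

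Other genes that were high in regenerated neurons were also followed in unlesioned array 2. The 156 other probe sets called higher in regenerated than in nonregenerated neurons had a median of 0.00 in it, against -0.04 and -0.01 in unlesioned arrays 1 and 3. Their medians in regenerated arrays ran from 1.11 to 1.60. With regenerated arrays high and nonregenerated arrays low, centring on the probe set's own median tends to hold unlesioned values near that median. A high unlesioned array 2 also widens the spread used by limma, which works against a call. The low reading follows in part from the centring and the choice, so nothing is read from it for unlesioned array 2. Next to aldoca, the named genes with the largest excess in that array were cyp51, a sterol synthesis enzyme, at 2.44, phex at 2.36, the retinoic acid enzyme aldh1a2 at 2.35, the Wnt receptor fzd10 at 2.17, marco, a macrophage receptor, at 2.13, tagln2 at 2.10 and pm20d1.1 at 2.10. In none of these did every regenerated array lie above every unlesioned array, as in the members. They were picked for a high unlesioned array 2, and the members for high regenerated arrays. The contrast follows largely from the choice, and nothing is read from it. The gene cyp51 read -1.32, -1.77 and -2.61 in regenerated arrays, against 0.00, 1.21 and -2.46 in unlesioned arrays. The means of marco went in the members' direction, at 0.36 in regenerated, -0.69 in nonregenerated and -1.23 in unlesioned arrays, and it was not called.

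With that array left out, regenerated minus unlesioned was 5.73 for aldoca, or 53.1-fold. It was 4.81 for ca8 by probe set 2 (28.1-fold), 4.79 for pcp4l1 (27.6-fold) and 4.70 for pvalb7 (25.9-fold). It was 4.21 for ca8 by probe set 1 (18.5-fold) and 3.02 for pvalb6 (8.12-fold). Each had to be above the value with all arrays, since the array left out was the highest unlesioned one in all 6 probe sets. Its high value was also part of the choice, so nothing is read from this rise.

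**Figure D3:**
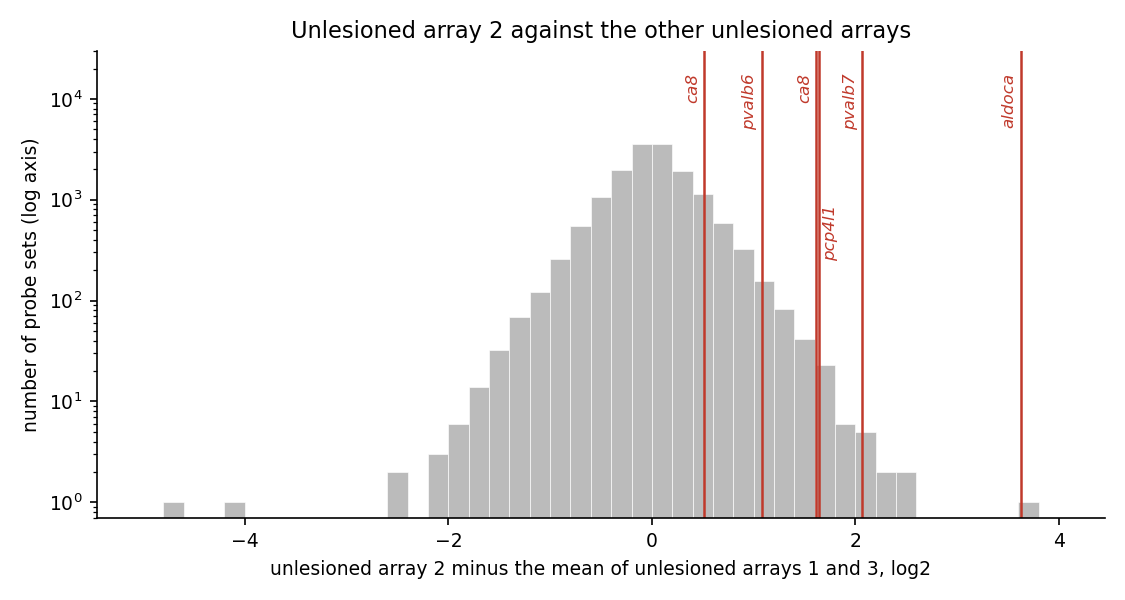
Number of probe sets (log axis) by the log2 difference of unlesioned array 2 from the mean of unlesioned arrays 1 and 3, over all 15502 probe sets, with a line at each member probe set. The line of aldoca at 3.62 stands at the right end of the distribution, and the lowest member line, of ca8, is at 0.52.

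The spread within groups differed between members. In aldoca the SD was 0.37 in regenerated, 0.74 in nonregenerated and 2.10 in unlesioned arrays, in pvalb7 0.22, 0.52 and 1.23, and in pcp4l1 0.32, 0.76 and 1.04, with the groups ordered likewise. In ca8 probe set 2 it was 0.27, 0.63 and 1.03. The unlesioned SD was the largest in these 4, and it holds the high value of unlesioned array 2 that was part of the choice. In ca8 probe set 1 the SD was 0.61 in regenerated, 0.82 in nonregenerated and 0.33 in unlesioned arrays, and in pvalb6 it was 0.47, 0.95 and 0.62, so that the nonregenerated group spread most. Among all probe sets the members' SDs stood at percentiles 28.9 to 78.5 in regenerated, 82.7 to 98.0 in nonregenerated and 63.2 to 100 in unlesioned arrays.

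The relatives of the members were examined next. All 9 listed parvalbumin genes were measured, with 1 probe set each. Of the 7 that are not members, only pvalb8 was called, at 1.09 ± 0.22 against nonregenerated (adjusted p = 0.0405) and 1.15 ± 0.22 against unlesioned (adjusted p = 0.0363), both by limma. The probe set of pvalb8, an EF-hand gene known from hair cells in zebrafish, read 1.34, 1.21 and 0.55 in regenerated arrays, against -0.02, -0.15 and 0.02 in nonregenerated and 0.00, -0.16 and -0.20 in unlesioned arrays. Both calls were lost in 13 of 17 alternatives, among them 8 of the 9 runs that left out an array, all but the one without regenerated array 3, with adjusted p-values up to 0.196.

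The muscle parvalbumins pvalb1, pvalb2, pvalb3 and pvalb4, with pvalb5 and pvalb9, were not called. Their differences from nonregenerated ran from 0.14 to 0.60 and from unlesioned from -0.07 to 0.44. With the negative control covariate, those of pvalb2, pvalb4 and pvalb9 were below 0 in both comparisons and that of pvalb1 was below 0 against unlesioned. The list of 22 measured skeletal muscle genes (30 probe sets) had no call in either comparison. Its median was 0.23 against nonregenerated and 0.24 against unlesioned, beside 0.06 and 0.05 over all probe sets, and its largest difference from nonregenerated was 0.66, in myl1.

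Among aldolases, aldoca alone was called. The other aldolase C gene aldocb differed from nonregenerated by -0.24 ± 0.22 and -0.22 ± 0.19 in its 2 probe sets, and the aldolase A genes aldoaa and aldoab by 0.11 ± 0.21 and -0.15 ± 0.35. Against unlesioned these 4 probe sets ran from -0.25 to 0.50. After centring arrays on their 75th percentiles, aldoaa was at -0.01 against nonregenerated and 1 of the aldocb probe sets at -0.06 against unlesioned.

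Of 22 listed carbonic anhydrase genes 8 were measured, on 11 probe sets. Beside ca8, the erythrocyte form cahz was called lower against unlesioned, at -1.22 ± 0.25 (limma adjusted p = 0.0444), beside 1.35% of all probe sets called lower. It differed from nonregenerated by -1.05 ± 0.25 (adjusted p = 0.0645). The call was lost in 13 of 17 alternatives, including 8 of 9 runs that left out an array, all but the one without nonregenerated array 2. The cytosolic enzyme gene ca2 was at 1.23 ± 0.40 and 0.76 ± 0.51 against nonregenerated in its 2 probe sets, and neither was called (adjusted p = 0.161 and 0.483). The first was called at 1.70 without nonregenerated array 1.

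Among the genes listed for an IQ motif, the relative of pcp4l1 that was measured, pcp4a, was at 0.00 ± 0.41 against nonregenerated and -1.01 ± 0.41 against unlesioned. Neurogranin a (nrgna), at -0.77 ± 0.56 and -1.33 ± 0.56, and the growth cone protein gene gap43, at -0.56 ± 0.29 and -0.99 ± 0.29, also did not pass. None of these 3 was called in either comparison, and none was above 0 against unlesioned.

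**Figure D4:**
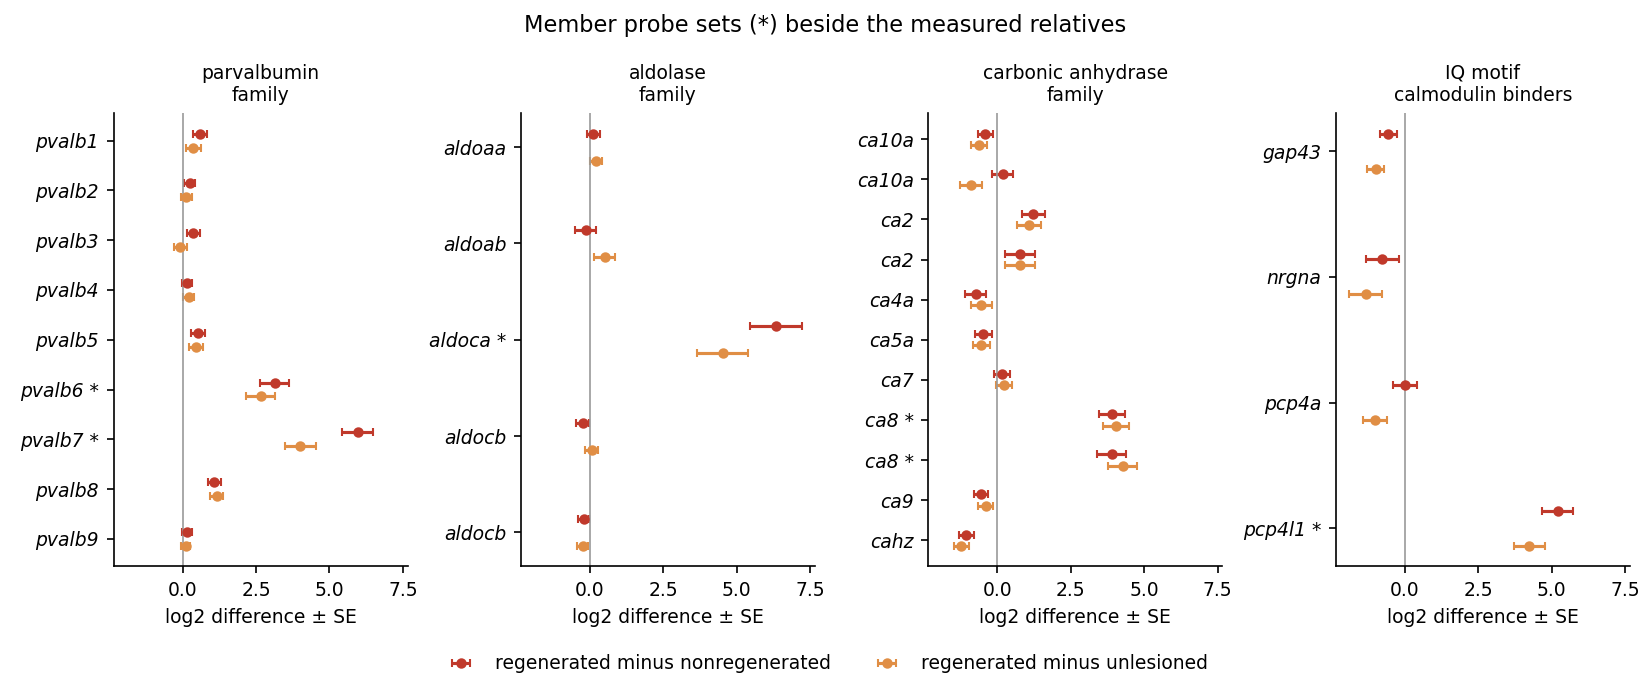
Log2 difference with its SE (horizontal axis) of the regenerated from the nonregenerated and from the unlesioned group, for every measured probe set of the 4 gene families, members marked by an asterisk. Every member lies above 2.6 in both comparisons, and every relative is below 1.3.

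Differences of listed Purkinje cell genes that are not members lay on both sides of 0. Of 37 listed genes 11 were measured, on 13 probe sets, and the others were not analysed here. Against nonregenerated neurons 2 probe sets were called higher and none lower, beside 1.05% and 1.41% of all probe sets, with a median difference of 0.98 beside 0.06 over all. In 8 of the 13 every regenerated array lay above every nonregenerated array, beside 12.5% of all probe sets, and 10 of the 13 differences were above 0. In 3 every regenerated array lay below. The share of all probe sets that lay below was not counted, so nothing is read from the number 3. The list held the symbol plcb4 and not plcb4b, so these counts leave out plcb4b, which was measured. It rose by 2.73 ± 0.43 (limma adjusted p = 0.0123), and by 1.99 ± 0.43 against unlesioned (adjusted p = 0.0519). It is named below for its likeness to members, so its height is part of what picked it. The transcription factor gene lhx1a, expressed in Purkinje cells, rose by 1.99 ± 0.39 in 1 of its 3 probe sets (limma adjusted p = 0.0359), with 1.81 ± 0.44 and 0.94 ± 0.36 in the others. The GABA synthesis gene gad1b rose by 1.61 ± 0.35 (adjusted p = 0.0494). The call of lhx1a was lost in 6 of the 9 runs that left out an array (all but those without regenerated array 1, nonregenerated array 1 or unlesioned array 3) and that of gad1b in 8 (all but that without regenerated array 1).

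The Purkinje regulator gene rorab read -0.66, -0.50 and -0.65 in regenerated arrays, against 0.23, 0.10 and -0.02 in nonregenerated and 0.17, 0.47 and 0.00 in unlesioned arrays. It lay below both other groups in every regenerated array and was not called, at -0.71 ± 0.18 (adjusted p = 0.0792) and -0.82 ± 0.18 (adjusted p = 0.0581). After centring arrays on their 75th percentiles it was called in both comparisons, at -0.83 and -0.93. The genes named next were chosen after their values were seen, and none of them was called. The postsynaptic scaffold gene homer3b, at -1.22 ± 0.34, and foxp2, at -0.98 ± 0.32, were also below nonregenerated in every regenerated array. The vesicular GABA transporter gene slc32a1, at 1.74 ± 0.52, the calcium buffer gene calb1, at 1.39 ± 0.50, esrrga, at 1.14 ± 0.37, and lhx1b, at 0.42 ± 0.24, were above nonregenerated in every regenerated array, as were all 3 lhx1a probe sets and gad1b. For calb1 the lowest regenerated value, 0.0032, was barely above the highest nonregenerated value, 0.00. Against unlesioned neurons none of the 13 probe sets was called, with a median of 0.52. Unlesioned array 2 differed from the mean of its group mates by a median of 0.01 over these 13 probe sets, and none was over 1 above both.

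**Figure D5:**
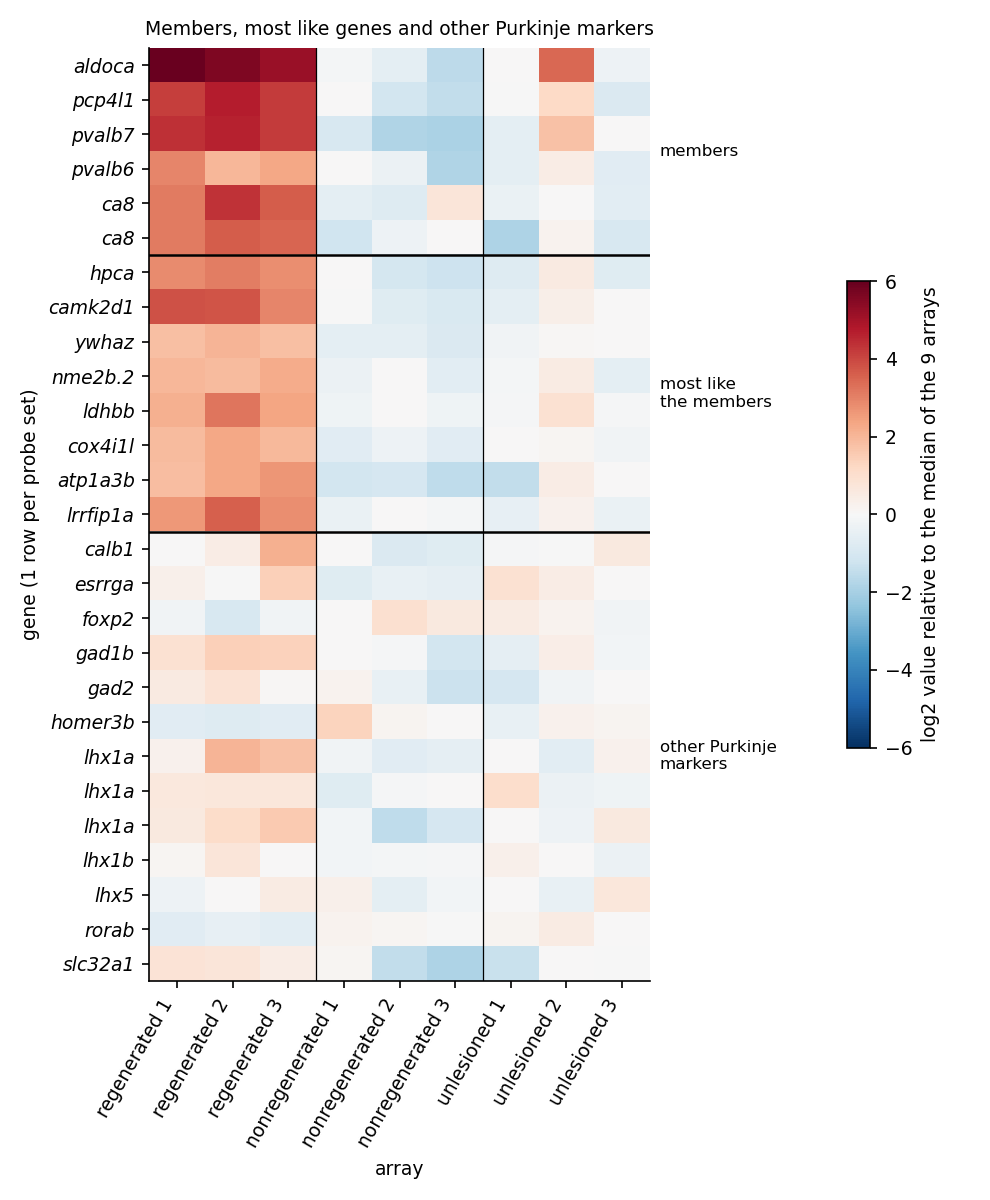
Log2 value in each array (columns, by group) of the member probe sets, of the 8 probe sets most like their mean profile, and of the measured genes of the Purkinje list (rows), with the colour scale from -6 to 6. The upper blocks are high in all 3 regenerated arrays, which is part of what picked their rows. In the lowest block 8 of 13 probe sets are above nonregenerated in every regenerated array, beside 12.5% of all probe sets. In rorab, homer3b and foxp2 every regenerated array is below nonregenerated, and the share of all probe sets that do so was not counted.

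The named probe sets most like the members were ranked by Pearson's r over the 9 arrays with the mean profile of the 5 genes, among the 301 non-member probe sets with a single symbol and an SD of at least 1. The 8 most alike had r from 0.953 to 0.991. In order they were hpca (hippocalcin, a neuronal calcium sensor), camk2d1 (a calcium and calmodulin dependent kinase), ywhaz (a 14-3-3 protein), nme2b.2 (a nucleoside diphosphate kinase), ldhbb (a lactate dehydrogenase), cox4i1l (a respiratory chain subunit), atp1a3b (a sodium pump subunit) and lrrfip1a. These r values are a description over 9 arrays, since the profile holds both the difference between groups and the high unlesioned array 2 that chose the members. In that profile unlesioned array 2 stood at 1.40, against -0.46 and -0.53 in its group mates, and the excess of that array in the 8 genes, from 0.19 (ywhaz) to 1.29 (hpca), is part of what ranked them.

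Taken gene by gene, hpca was the nearest to pcp4l1 (r = 0.993), aldoca (r = 0.969) and pvalb6 (r = 0.963). For pvalb7 it was ywhaz (r = 0.978), followed by hpca (r = 0.973) and the mitochondrial gene ndufa4b (r = 0.972). The phospholipase C gene plcb4b was also among the 3 nearest to aldoca (r = 0.949) and pvalb6 (r = 0.959). The 3 nearest to ca8 were others: lrrfip1a (r = 0.986), the calcium store gene casq2 (r = 0.966) and the protease gene plaua (r = 0.961).

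The remaining calcium binding proteins did not rise together. Of 28 probe sets of 24 measured buffers and sensors, 2 were called higher and 1 lower against nonregenerated, beside 1.05% and 1.41% of all probe sets, with a median of 0.08. The highest was hpca, which read 2.82, 3.08 and 2.77 in regenerated arrays, against 0.00, -1.05 and -1.26 in nonregenerated and -0.76, 0.54 and -0.74 in unlesioned arrays. Its difference was 3.66 ± 0.41 (limma adjusted p = 0.00442) and 3.21 ± 0.41 against unlesioned (adjusted p = 0.00946), the second lost without unlesioned array 3 and after quantile normalization. The EF-hand gene s100a1 rose by 2.05 ± 0.40 (adjusted p = 0.0330) and the sensor gene ncalda fell, with -1.66 ± 0.32 (adjusted p = 0.0306) in 1 of its 3 probe sets. Each of these last calls was lost in 6 of the 9 runs that left out an array. Those runs were, for s100a1, without regenerated array 3, any nonregenerated array or unlesioned array 1 or 2, and for ncalda, without regenerated array 1 or 2, any nonregenerated array or unlesioned array 2.

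Of the genes that store, pump and exchange calcium, 5 of 23 probe sets (18 genes) were called higher against nonregenerated and none lower, beside 1.05% and 1.41% of all probe sets, with a median of 0.25. The store protein gene casq2 rose by 3.94 ± 0.34 (limma adjusted p = 0.00108) and read 3.40, 3.17 and 4.28 in regenerated arrays, against -0.56, -0.41 and 0.00 in nonregenerated arrays. The plasma membrane calcium pump genes atp2b1a, at 3.12 ± 0.43, 2.73 ± 0.25 and 2.31 ± 0.29 in its 3 probe sets, and atp2b2, at 2.73 ± 0.36, were called too (adjusted p = 0.00735, 0.00122, 0.00544 and 0.00653 by limma). With the covariate the calls of atp2b2 and of the atp2b1a probe set at 2.31 were lost, and the atp2b1a probe set at 3.12, chosen after its value was seen, was not refitted. Against unlesioned neurons 4 of the 23 were called higher, beside 0.871% of all probe sets, with a median of 0.14.

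Markers of other cells moved as follows. Among 18 probe sets of projection neuron markers 4 were called higher against nonregenerated and none lower, beside 1.05% and 1.41% of all probe sets, all in prph and sncgb. The median difference was 0.73, and 14 of the 18 were above 0. Against unlesioned 2 were called higher and none lower, beside 0.871% and 1.35% of all probe sets, with a median of 0.44. Both were probe sets of prph. These 2 calls against unlesioned were lost in 8 and 10 of 17 alternatives, among them 7 and 8 of the 9 runs that left out an array. The intermediate filament gene prph, known from neurons with long axons outside the brain, rose by 3.23 ± 0.48 and 3.35 ± 0.51 in 2 of its 4 probe sets (limma adjusted p = 0.00995 and 0.0105), with 1.77 ± 0.66 and 0.12 ± 0.21 in the others. The second of these calls against nonregenerated was lost without nonregenerated array 2, at 3.20, and with only the 6 arrays compared. The synuclein gene sncgb rose by 1.36 ± 0.27 and 1.16 ± 0.25 in 2 of its probe sets (limma adjusted p = 0.0345 and 0.0480). Another stood at 0.96 ± 0.30 and was not called (adjusted p = 0.142). The first of the 2 calls was lost in 6 of the 9 runs that left out an array, all but those without regenerated array 1, nonregenerated array 1 or unlesioned array 2, and the second in 7, all but those without regenerated array 1 or unlesioned array 2. None of 16 granule cell probe sets was called in either comparison, with medians of 0.27 and -0.83. Of 25 probe sets of radial glia and astroglia markers 7 were called lower and of 7 oligodendrocyte probe sets 4, beside 1.41% of all, against nonregenerated, and none was higher. The glial transcription factor gene sox9b fell, with -3.93 ± 0.36 (limma adjusted p = 0.00141), and so did the oligodendrocyte lineage genes sox10, with -3.15 ± 0.39 (adjusted p = 0.00544), and olig2, with -3.35 ± 0.46 (adjusted p = 0.00716). The median of the radial glia and astroglia list ran from -1.42 to -0.51 in regenerated arrays, 0.05 to 0.30 in nonregenerated and -0.19 to 0.35 in unlesioned arrays. The part of lower glial RNA in the members' difference was not tested. Leukocyte markers (24 probe sets), erythroid markers (15) and endothelial markers (7) had no call against nonregenerated, with medians of 0.02, 0.38 and 0.68. Regenerated array 1 stood apart in the endothelial list, whose median was 1.82, 0.05 and 0.00 in regenerated arrays 1 to 3, with kdrl at 4.75, 0.85 and 0.00. Without regenerated array 1 all 6 members were past the threshold against nonregenerated and 4 against unlesioned. Against unlesioned 1 leukocyte probe set was called higher, beside 0.871% of all probe sets, that of the lipid carrier gene apoeb at 0.95 ± 0.19 (limma adjusted p = 0.0421). It was chosen after its value was seen, and its call was not followed over the alternatives. In the erythroid list 1 probe set was called lower, that of cahz, beside 1.35% of all probe sets.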

How the data were processed

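Affymetrix 3' IVT zebrafish arrays, 1 per sample, were hybridized with amplified, biotin-labelled RNA, per the labels' protocols. The deposited log2 values were made by the authors with RMA, per the submitters' processing notes (version not given in the sources used here). Each of the 15617 rows has a median of 0 over the 9 arrays (tolerance 1e-04). The step that did this is not given, so no absolute signal or background is known.

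Tests covered 15502 probe sets, without the 115 controls. A table of GEO's platform annotation names 1 symbol for 10795, several for 135 and none for 4572. Symbols of 10711 were looked up in RefSeq (GRCz12tu, names only). No sequence is printed, since none was used here.

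Group means of all 9 arrays were fitted across all probe sets with limma 3.58.1 (R 4.3.3; 6 residual and 3.16 prior degrees of freedom), two-sided. Calls are at a Benjamini-Hochberg adjusted p under 0.05. The number of arrays limits the precision. In simulated data with the measured spread, the fit recovered 29.6% of changes of 1 log2 and 80.6% of changes of 2 log2. A probe set not called may therefore still differ by 1 log2 and, less often, by 2 log2 or more. The simulation changed 200 probe sets a run, in regenerated arrays only, with independent normal noise in each probe set, and averaged over all probe sets. In the measured data 380 were called against nonregenerated, so the cut-off for a call may differ and the recovered shares are approximate. The members' pooled SDs stood at percentiles 87.6 to 99.8, so larger differences can go uncalled in them.

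The members and gene lists were chosen with earlier results of these data known. Named genes were all family relatives, from each other list some of the 4 probe sets with the smallest p, the 8 genes most like the mean profile, the 3 most like each member, and the 8 largest excesses in unlesioned array 2; genes outside this rule are marked as chosen after their values were seen. Alternatives covered array scaling, array weights, robust moderation, the arrays entering the fit, the negative control reading, a block for the replicate number and gene-level values. Figures used matplotlib 3.10.9.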

Additional observations from a re-analysis of the deposited data

How the results depend on the processing

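Over all probe sets, 380 were called between regenerated and nonregenerated neurons (162 higher, 218 lower) and 344 between regenerated and unlesioned neurons (135 higher, 209 lower). These counts were 176 and 96 after a further quantile normalization, 224 and 158 with only the 6 arrays compared, and 183 and 130 with the negative control covariate, where the share of higher calls was 60.1% and 54.6% against 42.6% and 39.2%. After centring arrays on their 75th percentiles the median of all probe sets was -0.06 in both comparisons, against 0.06 and 0.05, and the shares of higher calls were 27.2% and 26.0%. With 1 value per gene the counts were 260 and 199, over 8793 genes in place of 15502 probe sets, so they cannot be set directly beside 380 and 344. Leaving out 1 array gave 181 to 572 calls against nonregenerated, 58 to 418 against unlesioned, and 0 to 1 between nonregenerated and unlesioned, the 1 being lyz without unlesioned array 2. The cause of these changes was not tested.

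The replicate numbers are not shown to pair the arrays: same-numbered arrays deviated together with r from -0.193 to 0.26. With the replicate number as a block the counts were 280, 193 and 0, and all 6 member probe sets were called in both comparisons of the regenerated group.

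No difference of the regenerated group changed sign in a member. Leaving out 1 array, nonregenerated minus unlesioned, never called, ran from -0.337 (without nonregenerated array 3) to 0.406 in ca8 probe set 1, where it was -0.0203 without unlesioned array 3, from -0.117 (without unlesioned array 1) to 0.913 in ca8 probe set 2, and from -0.827 to 0.0715 (without nonregenerated array 3) in pvalb6. Among uncalled relatives, signs turned with the covariate against nonregenerated in aldoab (0.212), ca7 (-0.312), gap43 (0.129), nrgna (0.303), pvalb2 (-0.0720), pvalb4 (-0.100) and pvalb9 (-0.0241), and against unlesioned in ca7 (-0.224), pvalb1 (-0.167), pvalb2 (-0.173), pvalb4 (-0.0262) and pvalb9 (-0.0699). With 75th percentile centring they turned in aldoaa (-0.00838), aldocb (-0.0596) and pvalb9 (-0.0135), and with quantile normalization in pcp4a (0.229). Leaving out 1 array, values against nonregenerated ran from -0.0671 to 0.258 in aldoaa, -0.408 to 0.163 in aldoab, -0.155 to 0.425 in ca10a, -0.0625 to 0.414 in ca7 and -0.288 to 0.468 in pcp4a. Against unlesioned they ran from -0.120 to 0.219 in aldocb, -0.0109 to 0.254 in pvalb2 and -0.226 to 0.0554 in pvalb3. Background signal is unknown in centred values, so dim probe sets could not be left out.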
